A study of Mus musculus with 43 samples.

Results

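The Gimap genes (GTPases of immunity-associated proteins) are a family of 8 mouse genes in these tables, Gimap1, Gimap3, Gimap4, Gimap5, Gimap6, Gimap7, Gimap8 and Gimap9. They were taken as the rows whose gene identifier maps to one of these symbols, 8 of 56941 gene identifiers counted. The rule itself uses no measured value, but the family was proposed with earlier results of these data known. All 8 were measured in all 43 libraries and passed the filter on low counts in each of the 6 comparisons of groups.

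RNA of sorted mouse bone marrow cells was sequenced. Wild-type CD45.1 mice that had received no conditioning were given 5000000 whole marrow cells of JAK2V617F-positive CD45.2 donors, and age- and sex-matched wild-type CD45.1 mice without a transplant were the controls. The groups were CD45.2 donor cells (n = 7) and CD45.1 host cells (n = 7) sorted from the same 7 transplanted mice about 7 months later, and CD45.1 cells of 8 control mice. CD45-negative, lineage-negative marrow, enriched for stroma, came from the same 7 transplanted and 8 control mice, and CD45.1 CD11b-positive cells came from 3 other transplanted and 3 other control mice, all male, after 52 weeks. Groups held 4 males with 3 or 4 females otherwise. No group analysed here received normal marrow, so an effect of JAK2V617F cells cannot be told apart from an effect of transplantation, and donor cells also differ from control cells in genotype and CD45 allele. The final blood chimerism of the transplanted mice, given without a unit, ran from 0.63 to 5.99. The donor library of animal N204 is a donor library by its title and recipient-derived by another label. It was kept as donor, and its Gimap levels lay within the range of the other donor libraries for all 8 members.

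Gimap proteins are small GTP-binding proteins of vertebrates, best known from lymphocytes, where several of them are needed for the survival of mature T and B cells. Gimap5 is the best studied: its loss causes a shortage of lymphocytes in mice and rats. The genes sit side by side as one cluster, so that neighbouring genes of one region can be compared with one another.

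The promoters of 3 members are shown because these genes mark the extremes of the results: Gimap3 differed most between donor and control cells, Gimap9 differed least, and Gimap6 had the highest level in control cells. Each runs from 250 bases before to 50 bases after the annotated start (RefSeq, GRCm38.p6, written 5′ to 3′ on the gene's own strand), and capitals mark matches to any of 5 short motifs on either strand. Gimap3 lies at chr6:48770802-48771101 on the minus strand, Gimap6 at chr6:48708195-48708494 on the minus strand and Gimap9 at chr6:48675885-48676184 on the plus strand.
Gimap3: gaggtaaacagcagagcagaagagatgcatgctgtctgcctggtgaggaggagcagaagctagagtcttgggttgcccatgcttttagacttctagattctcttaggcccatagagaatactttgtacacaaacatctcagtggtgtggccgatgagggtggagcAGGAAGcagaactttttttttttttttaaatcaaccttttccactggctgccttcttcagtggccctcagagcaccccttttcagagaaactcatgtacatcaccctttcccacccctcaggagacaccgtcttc
Gimap6: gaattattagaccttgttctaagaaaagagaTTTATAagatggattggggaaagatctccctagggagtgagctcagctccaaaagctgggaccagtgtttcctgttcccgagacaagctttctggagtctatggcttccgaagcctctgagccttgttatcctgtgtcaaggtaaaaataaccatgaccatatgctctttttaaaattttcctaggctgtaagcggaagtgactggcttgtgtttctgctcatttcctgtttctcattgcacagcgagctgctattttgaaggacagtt
Gimap9: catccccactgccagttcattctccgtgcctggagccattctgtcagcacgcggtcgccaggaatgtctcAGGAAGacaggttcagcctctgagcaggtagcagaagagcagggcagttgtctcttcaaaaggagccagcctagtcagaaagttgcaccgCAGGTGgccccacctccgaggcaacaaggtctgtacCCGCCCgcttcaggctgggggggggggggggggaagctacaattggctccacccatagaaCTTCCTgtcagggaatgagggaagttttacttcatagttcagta
Only exact matches to the letters given were searched, so other forms of these sites were not counted. The motif AGGAAG, a form of the site read by ETS factors, stood in 7 of the 9 promoters listed for the 8 members. Gimap8 has 2 of these, and their windows overlap. The same motif stood in 35.4% of 32851 mouse promoters of the same length. TGTGGT, the core read by RUNX factors, stood in 3 of the 9, those of Gimap1, Gimap4 and Gimap7, against 16.8% of all. TATAAA stood in 1, that of Gimap6, against 13.6% of all, and the E box CAGGTG in 1, that of Gimap9, against 20.2%. GGGCGG, a GC box, stood in 2, those of Gimap7 and Gimap9, against 35.7%. Gimap9 held 8 CG dinucleotides in its 300-base window and the other member promoters 2 to 4, where the median of all promoters was 7. None of these matches overlapped another in the windows shown.

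Library totals were 15713119 to 19683698 counts for the CD45-sorted cells, 41210646 to 143228988 for stroma and 32478800 to 44853593 for CD11b cells. Levels are given in TPM, transcript abundance scaled for gene length and library depth. The 8 neutrophil genes listed summed to 77374 to 187663 TPM in the CD45.1 and CD45.2 sorts and 227352 to 350469 TPM in the CD11b sort. Stroma libraries, although sorted as CD45-negative, held 6225 to 58894 TPM of the same genes. The mesenchymal list of 10 genes was higher in control stroma than in control CD45.1 cells in all 10, with a median log2 fold change of 9.97. In these bulk samples, fewer cells of a type and less RNA per cell cannot be told apart.

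Gimap6, which binds the autophagy protein Gabarapl2, was the most abundant member by TPM, which is scaled for gene length, in 4 of the 7 groups by the mean. It averaged 28.6 ± 12.97 TPM in BMT stroma (SD, n = 7) and 31.0 ± 7.0 TPM in control stroma (n = 8), and 54.0 ± 17.4 TPM in host cells (n = 7) and 89.4 ± 24.8 TPM in control CD45.1 cells (n = 8). In control CD45.1 cells its lowest library, at 52.1 TPM, was above the highest library of Gimap3, the next member, at 48.9 TPM. Below it stood Gimap3 and Gimap4 at 34.5 ± 7.3 and 31.8 ± 6.2 TPM, Gimap9, Gimap1, Gimap5 and Gimap8 between 17.7 ± 3.9 and 10.9 ± 2.1 TPM, and Gimap7 at 5.29 ± 1.46 TPM. Neighbours in that order overlapped from Gimap3 to Gimap8, and only the steps below Gimap6 and above Gimap7 were free of overlap. Host cells had the same first 4 members, with Gimap5 and Gimap1 exchanged below them, and every pair of neighbours overlapped.

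**Figure D1:**
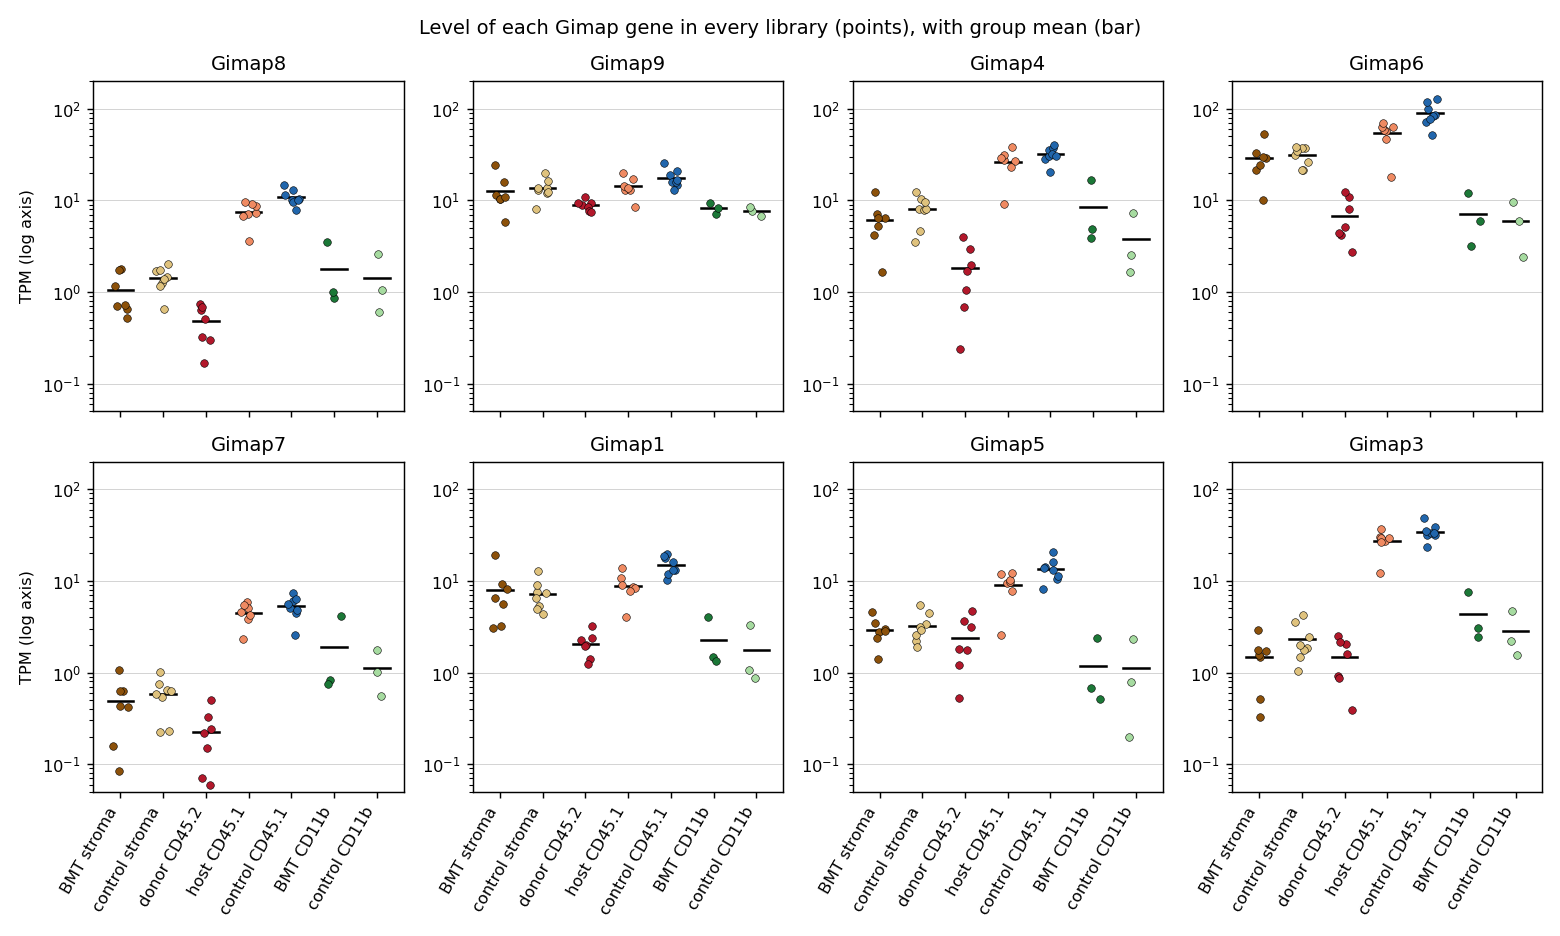
TPM on a log axis of each Gimap gene in every library (points), by group, with the group mean as a bar. Gimap3, Gimap4, Gimap7 and Gimap8 in the 7 donor libraries lie far below the host and control CD45.1 libraries, while Gimap9 keeps within 5.78 to 25.3 TPM in all 43 libraries.

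The order was different in donor cells. Gimap9 led there by the mean at 8.80 ± 1.15 TPM (n = 7), followed by Gimap6 at 6.83 ± 3.66 TPM. Gimap7 was last at 0.22 ± 0.15 TPM, or 1 to 8 counts a library. Every pair of neighbours in the donor order overlapped, Gimap9 and Gimap6 among them. Gimap9 made up 39.5% ± 10.7 of the summed TPM of the family in donor cells, 9.76% ± 2.03 in host cells and 8.22% ± 1.32 in control CD45.1 cells. The donor range, 25.5 to 57.1%, lay wholly above the control range, 5.90 to 9.74%. Gimap9 also led in control CD11b cells, at 7.60 ± 0.86 TPM (n = 3). In BMT CD11b cells it stood at 8.25 ± 1.17 TPM beside Gimap4 at 8.46 ± 7.15 TPM, whose mean was raised by animal N129. By the median, Gimap9 led in both CD11b groups.

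**Figure D2:**
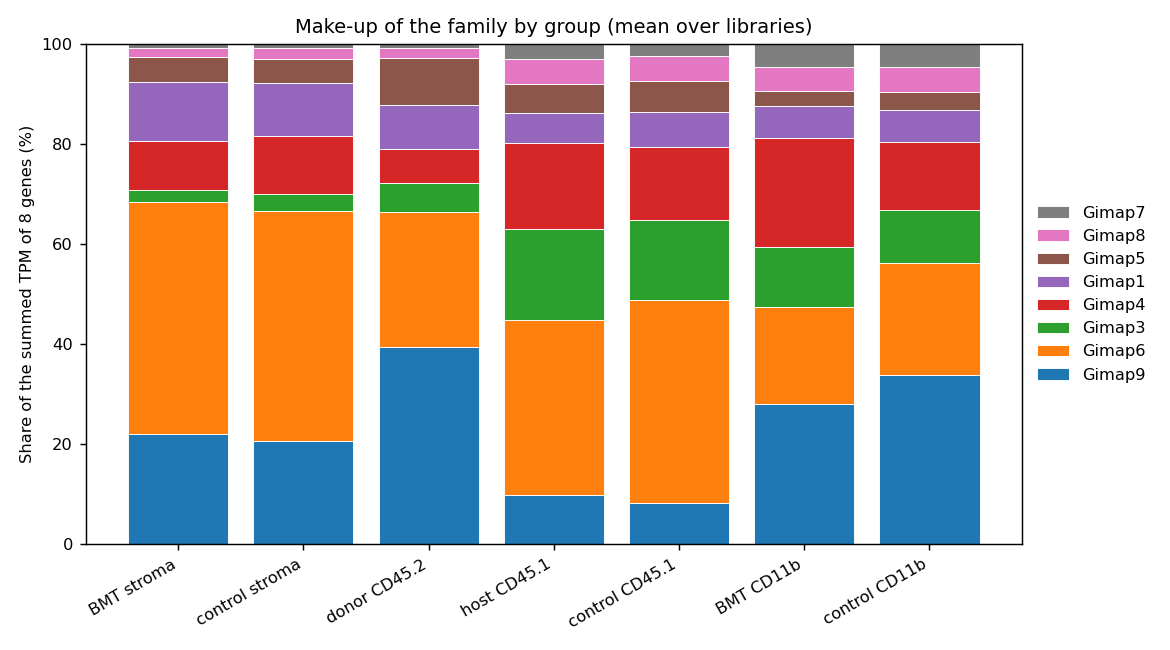
Share of the summed TPM of the 8 Gimap genes held by each gene (stacked bars, percent, mean over the libraries of a group). Gimap9 holds 39.5% in donor CD45.2 cells and 8.22% in control CD45.1 cells, and Gimap6 holds 46.5% in BMT stroma and 45.9% in control stroma.

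All 8 Gimap genes were lower in JAK2V617F donor cells than in control CD45.1 cells, with log2 fold changes from -4.65 to -1.08 and no donor library as high as any control library. For comparison, 23.0% of 13906 genes tested were called lower (edgeR quasi-likelihood test, Benjamini-Hochberg adjusted p below 0.05) and 9.77% had donor libraries wholly below control libraries. The median log2 fold change of the members was -4.10, and that of all genes tested was 0.00 to 2 decimals. The family summed to 24.1 ± 8.0 TPM in donor cells (n = 7) and 218 ± 47 TPM in control cells (n = 8).

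Gimap3, a family member that helps mouse T cells survive, had 0.39, 1.58 and 2.49 TPM in donor cells (lowest, median and highest library), against 23.3, 33.0 and 48.9 TPM in control cells. Its log2 fold change was -4.65 ± 0.26 (SE; edgeR adjusted p = 5.01e-10). The donor libraries were all low, far below the lowest control library. Gimap5, which resembles Gimap3 closely in sequence and is needed for long-lived T cells, had 0.53, 1.82 and 4.67 TPM in donor cells and 8.17, 13.5 and 20.4 TPM in control cells. Its difference was smaller, a log2 fold change of -2.48 ± 0.24 (edgeR adjusted p = 2.45e-07).

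Gimap4, which speeds the death of activated T cells in mice, had 0.24, 1.68 and 4.00 TPM in donor cells and 20.4, 31.2 and 40.25 TPM in control cells, a log2 fold change of -4.33 ± 0.32 (edgeR adjusted p = 1.08e-08). Gimap8, the longest member, had 0.17, 0.51 and 0.74 TPM in donor cells and 7.81, 10.2 and 14.7 TPM in control cells, a log2 fold change of -4.38 ± 0.23 (edgeR adjusted p = 2.93e-10). Gimap7 had 1, 3 and 8 counts in donor libraries and 32, 74 and 96 counts in control libraries, a log2 fold change of -4.43 ± 0.34 (edgeR adjusted p = 1.65e-08). At so few counts its donor level is known only roughly.

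Gimap6 had 2.75, 5.18 and 12.4 TPM in donor cells and 52.1, 84.4 and 127 TPM in control cells, a log2 fold change of -3.86 ± 0.26 (edgeR adjusted p = 3.61e-09). Gimap1, without which mature mouse B and T cells are lost, had 1.25, 1.99 and 3.25 TPM in donor cells and 10.2, 14.6 and 19.6 TPM in control cells, a log2 fold change of -2.89 ± 0.22 (edgeR adjusted p = 1.31e-08). Gimap9 fell least: it had 7.38, 8.83 and 10.8 TPM in donor cells and 12.9, 16.4 and 25.3 TPM in control cells. The log2 fold change of Gimap9 was -1.08 ± 0.13 (edgeR adjusted p = 3.4e-06), with a 95% interval of -1.36 to -0.81. The 95% interval nearest to it, that of Gimap5, ended at -1.98.

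**Figure D3:**
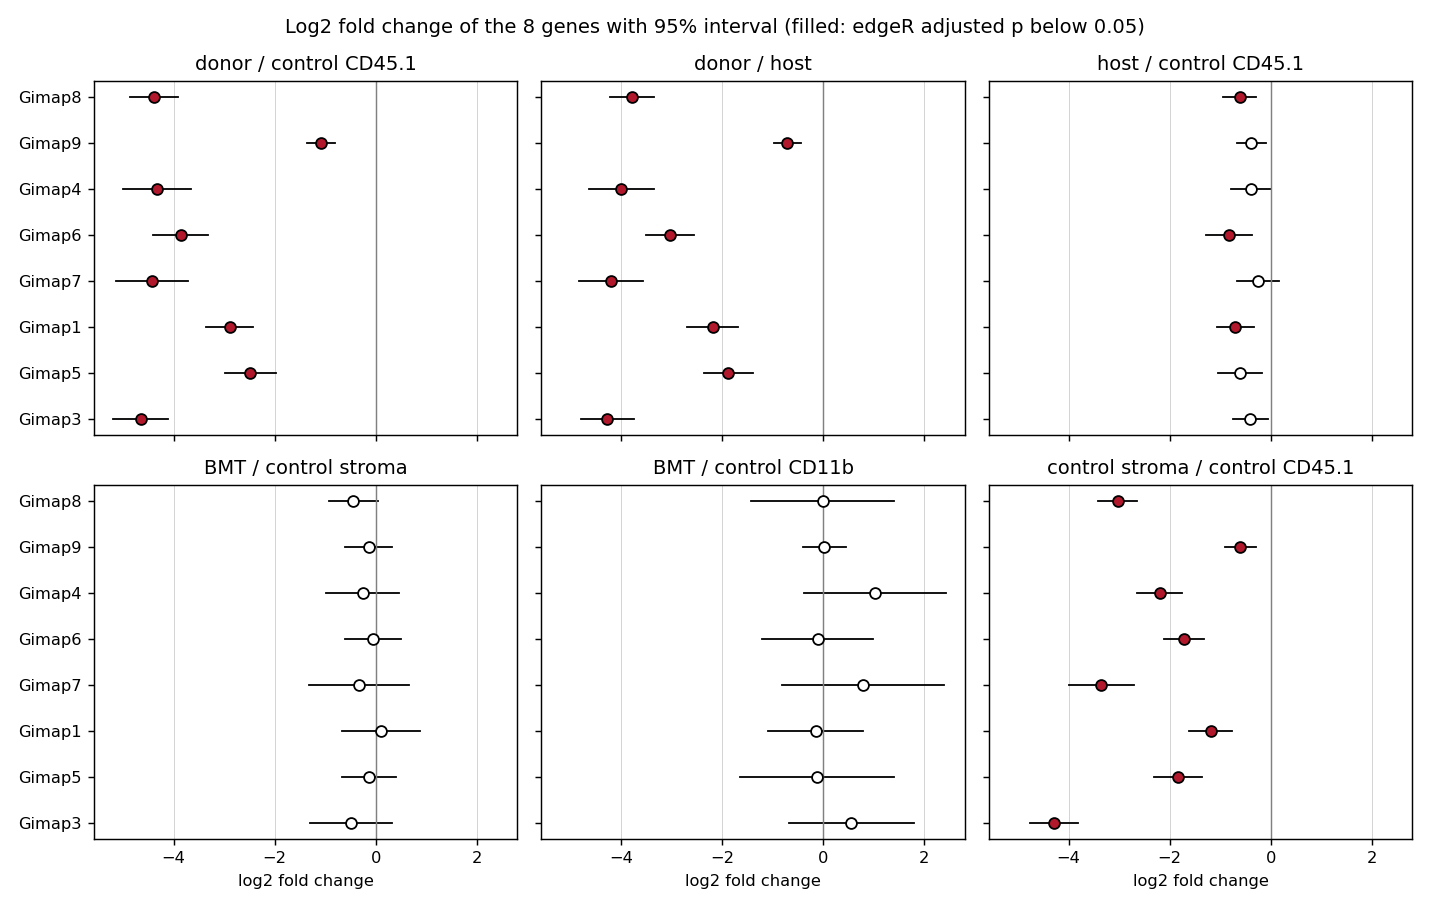
Log2 fold change of each Gimap gene (points) with its 95% interval (lines) in 6 comparisons, filled where the edgeR adjusted p was below 0.05. In donor cells against control cells 7 members lie between -4.65 and -2.48 and Gimap9 at -1.08, and in BMT against control stroma and CD11b cells no member passed.

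Genes of lymphocytes moved with the family. All 20 T-cell genes were lower in donor than in control cells, with a median log2 fold change of -4.14, among them Bcl11b at -5.14 and Lck at -4.02. Their summed level was 14.6 to 30.5 TPM in donor cells and 178 to 386 TPM in control cells. All 15 B-cell genes were lower as well, with a median of -5.11, and 10 of 11 natural killer (NK) cell genes, with a median of -2.73 and 1 gene higher. Of 9 genes of naive lymphocyte circulation and survival 8 were lower, including Tcf7 at -3.52 and S1pr1, the receptor by which lymphocytes leave tissues, at -3.25. No gene of the T-, B- or NK-cell lists was at 0 in all donor libraries. The part of lymphocyte number in the family's difference was not tested. The ratio of the family's summed TPM to that of the T-cell genes was 0.791 to 1.58 in donor cells, with a median of 1.01, and 0.685 to 0.959 in control cells, with a median of 0.778. The same ratio to the B-cell genes had a median of 0.767 in donor cells and 0.342 in control cells. To the NK-cell genes it had a median of 0.0717 in donor cells and 0.732 in control cells, with ranges that did not overlap. Nkg7, a granule protein gene, made up most of that NK-cell sum, at 211 to 318 TPM in donor cells and 157 to 234 TPM in control cells.

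**Figure D4:**
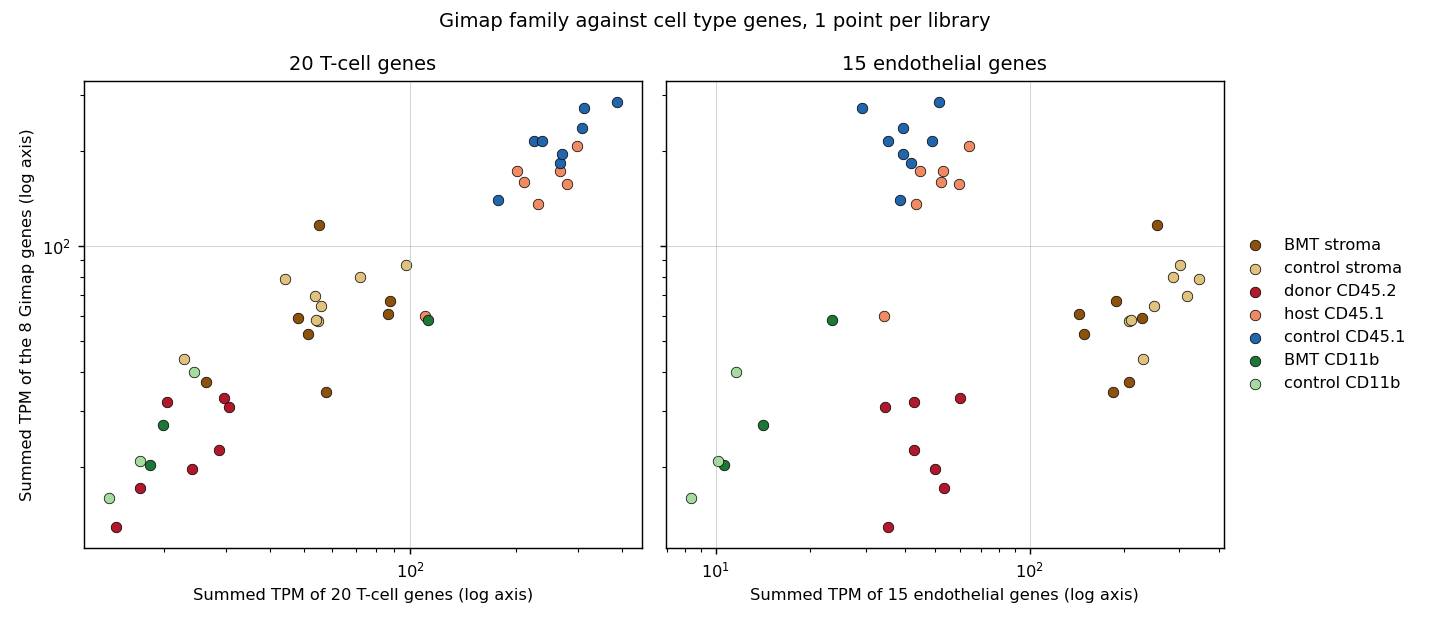
Summed TPM of the 8 Gimap genes against the summed TPM of 20 T-cell genes (left) and 15 endothelial genes (right), both axes log, 1 point per library. The 7 donor libraries sit at 12.9 to 33.0 TPM of the family and the 8 control CD45.1 libraries at 140 to 285 TPM, while stroma libraries hold the most endothelial RNA.

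In the same 7 mice, all 8 members were lower in donor than in host cells, 7 of them without overlap. Of 13662 genes tested 9.94% were called lower and 4.28% had donor libraries wholly below host libraries. The members' median log2 fold change was -3.41 (all genes 0.00), from Gimap3 at -4.27 ± 0.25 (edgeR adjusted p = 3.61e-08) to Gimap9 at -0.71 ± 0.13 (edgeR adjusted p = 0.000804). Gimap9 alone overlapped: the lowest host library, animal N269 at 8.35 TPM, was below the highest donor library at 10.8 TPM. With the animal as a block all 8 remained lower, and the count of all genes called was 4605 in place of 1928. The same lists were lower in donor cells here too, 20 of 20 T-cell genes (median -3.86) and 15 of 15 B-cell genes (median -3.93). The comparisons of donor cells with host and with control cells share the donor libraries.

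Host CD45.1 cells had less Gimap1, Gimap6 and Gimap8 RNA than control CD45.1 cells, 3 of 8 members called lower against 7.82% of 14073 genes tested. All 8 log2 fold changes were negative, from -0.83 to -0.26, with a median of -0.50 against 0.01 for all genes, and no member was free of overlap, where 0.696% of genes were wholly lower in host cells. The family summed to 60.2 to 207 TPM in host cells, with a median of 159 TPM, and to 140 to 285 TPM in control cells, with a median of 215 TPM.

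Gimap6 had 18.1, 58.5 and 70.2 TPM in host cells (lowest, median and highest library) and 52.1, 84.4 and 127 TPM in control cells. The groups overlapped, and the log2 fold change was -0.83 ± 0.22 (SE; edgeR adjusted p = 0.0167). Gimap1 had 3.99, 8.49 and 13.7 TPM in host cells and 10.2, 14.6 and 19.6 TPM in control cells, a log2 fold change of -0.70 ± 0.17 (edgeR adjusted p = 0.0114). Gimap8 had 3.64, 7.28 and 9.54 TPM in host cells and 7.81, 10.2 and 14.7 TPM in control cells, a log2 fold change of -0.62 ± 0.16 (edgeR adjusted p = 0.0139).

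The other 5 did not pass. Gimap5 and Gimap9 came nearest, at log2 fold changes of -0.61 ± 0.21 and -0.38 ± 0.14 (edgeR adjusted p = 0.0548 and 0.0626). Gimap3, Gimap4 and Gimap7 were at -0.40, -0.39 and -0.26 (edgeR adjusted p = 0.109, 0.17 and 0.409). Animal N269 was the lowest of the 7 host libraries for all 8 members. It also had the lowest T-cell, B-cell, NK-cell and endothelial levels of the 7, at 110, 117, 249 and 34.3 TPM. Among controls, animal N093 was lowest for 7 of 8 members. Without that control library 6 members passed, Gimap3, Gimap5 and Gimap9 in addition, at log2 fold changes of -0.50, -0.73 and -0.47. The call depended on the fit: 0 members passed in males alone, in females alone or with all 43 libraries in one fit, and the 8 fold changes were each negative in these fits apart from Gimap7 in males, at 0.06.

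Few T-cell genes were called in host cells: 2 of 20 were lower, among them Cd2 at -1.13, with a median over the list of -0.31. All 15 B-cell genes were lower with a median of -1.41, such as Ms4a1, which encodes CD20, at -1.71. Of the 9 genes of naive lymphocyte circulation and survival 6 were lower, with a median of -0.66, among them S1pr1 at -1.17, Il7r, the interleukin-7 receptor, at -0.93 and Foxo1 at -0.66. The summed B-cell level was 117 to 434 TPM in host cells and 321 to 858 TPM in control cells, and the T-cell level 110 to 299 TPM and 178 to 386 TPM in the same order. The part of these cells in the result was not tested. The ratio of family to T-cell TPM had a median of 0.649 in host cells and 0.778 in control cells, with ranges that overlapped. To the B-cell genes the ratio had a median of 0.598 in host cells and 0.342 in control cells, and to the NK-cell genes 0.412 in host cells and 0.732 in control cells, both with ranges that overlapped.

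In stroma, no member passed the test between transplanted and control mice: 0 of 8 were called by edgeR or by DESeq2, against 1.49% of 26191 genes, and 0 members had even an unadjusted p below 0.05. Their log2 fold changes ran from -0.50 to 0.10, with a median of -0.20 against 0.04 for all genes. Gimap6 had 10.2, 29.0 and 52.7 TPM in BMT stroma (lowest, median and highest) and 21.4, 33.0 and 38.1 TPM in control stroma, a log2 fold change of -0.05 with a 95% interval of -0.61 to 0.51. Gimap8 came closest, at -0.44 ± 0.23 (edgeR adjusted p = 0.708), and Gimap3 was at -0.50 with an interval of -1.31 to 0.31. The log2 fold changes seen in host cells lay outside the stroma interval for Gimap1 and Gimap6 and inside it for the other 6 members. That comparison leaves out the error of the host estimates, and the direct test of the difference, given below, passed for no member. Gimap1 was at 19.15 TPM in the BMT stroma of animal N203 and at 3.08 to 9.24 TPM in the other 6. Without that library its log2 fold change was -0.29 in place of 0.10. The B-cell and endothelial levels of the same library, 620 and 255 TPM, were also the highest of the 7. Its NK-cell level, 22.7 TPM, was the lowest, and its T-cell level, 55.0 TPM, was the median. Red-cell genes were higher in BMT stroma, 5 of 8 with a median log2 fold change of 2.43, at 9964 to 72288 TPM in BMT stroma and 2225 to 7629 TPM in control stroma. Of 15 endothelial genes 1 was lower, the adrenomedullin co-receptor gene Ramp2 at -1.33. The part of either in the Gimap levels was not tested.

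In CD11b cells no gene at all passed in 3 mice against 3 (0% of 15257 genes by edgeR, 2506 at an unadjusted p below 0.05, and 291 by DESeq2), and 0 of 8 Gimap genes passed in any of the fits. Gimap4 had 3.85, 4.84 and 16.7 TPM in BMT cells and 1.67, 2.52 and 7.30 TPM in control cells. The groups overlapped, and the log2 fold change was 1.02 ± 0.62 (edgeR adjusted p = 0.414). Gimap7 had 0.75, 0.83 and 4.17 TPM in BMT cells and 0.56, 1.02 and 1.78 TPM in control cells, a log2 fold change of 0.78 ± 0.71 (edgeR adjusted p = 0.581). Animal N129 had the highest level of 7 of 8 members among BMT animals. Its T-cell level was also highest, 112.1 TPM against 18.2 and 19.8 TPM in the other BMT animals. So were its NK-cell level, 285 TPM against 170 and 179 TPM, and its endothelial level, 23.45 TPM against 10.65 and 14.15 TPM. Its B-cell level was lowest, 21.4 TPM against 36.85 and 59.1 TPM. Without that animal Gimap4 was at 0.30, Gimap7 at -0.38 and Gimap3 at -0.06 in place of 0.55. Animal N128 was the highest control library for all 8 members, and without it Gimap4 was at 1.87, Gimap7 at 1.43 and Gimap3 at 1.21, none of which passed. Gimap9 was the steadiest, at 7.09, 8.24 and 9.43 TPM in BMT cells and 6.74, 7.62 and 8.45 TPM in control cells, with a 95% interval of the log2 fold change from -0.40 to 0.44.

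Control stroma differed from control CD45.1 cells of the same 8 mice in all 8 members, each lower in stroma, 6 without overlap. Of 19824 genes 36.3% were called lower and 28.8% lay wholly below, and the median log2 fold change of all genes was 0.53, and that of the members -2.01. The drop was uneven: Gimap3 was at -4.29 ± 0.23 (edgeR adjusted p = 2.11e-12), Gimap7 at -3.35 ± 0.31 and Gimap8 at -3.03 ± 0.19, Gimap4, Gimap5 and Gimap6 between -2.20 and -1.71, Gimap1 at -1.19 ± 0.21, and Gimap9 at -0.60 ± 0.15 (edgeR adjusted p = 0.000934). Gimap3, second in CD45.1 cells, had 1.04 to 4.24 TPM in control stroma and 23.3 to 48.9 TPM in control CD45.1 cells. Gimap9 had 8.06 to 20.0 TPM in control stroma and 12.9 to 25.3 TPM in control CD45.1 cells, and the groups overlapped. Scaling by library totals alone left Gimap9 at -0.22, no longer called, with a median of 0.89 for all genes. The gate and the library kit differ together between these groups and cannot be told apart. T-cell genes were lower in 19 of 20 (median -2.98), B-cell genes in 14 of 15 (median -3.08, 1 higher) and NK-cell genes in 11 of 11 (median -3.27). B-cell genes still summed to 111 to 330 TPM in control stroma, against 321 to 858 TPM in control CD45.1 cells. Endothelial genes were higher in 13 of 15 (median 4.41), where 53.3% of all genes were called higher. They summed to 207 to 345 TPM in control stroma and 29.1 to 51.3 TPM in control CD45.1 cells.

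The transplant effect in stroma minus that in CD45.1 cells did not pass for any member, where 1.61% of 22991 genes were called lower and 1.08% higher. Gimap1 and Gimap6 had the largest differences, 0.78 ± 0.40 and 0.75 ± 0.35 (SE; edgeR adjusted p = 0.429 and 0.354). The 95% interval of Gimap6, 0.045 to 1.457, excluded 0 before adjustment (edgeR unadjusted p = 0.038). After adjustment the smaller change of these genes in stroma was not shown to differ from that in host cells. The fit held no term for the animal, although each mouse gave a stroma and a CD45.1 library. The female minus male difference of the host effect was negative for all 8 members, from -0.70 to -0.08, and passed for none (edgeR adjusted p = 1 for each), as for 0 of 14073 genes, 425 of them at an unadjusted p below 0.05 and 3 called by DESeq2. In stroma the corresponding differences ran from -1.48 to -0.12, again with 0 passing of 26191 genes, 745 at an unadjusted p below 0.05 and 1 called by DESeq2. No member passed a test of a slope on the log2 blood chimerism of the mice. In host cells all 8 slopes were positive, from 0.05 to 0.20 log2 units a doubling, with 95% intervals that all included 0, and 0 of 12600 genes passed (538 at an unadjusted p below 0.05, 2 by DESeq2). The slope could be fitted for 5 members in donor cells, from 0.05 to 0.36, where 0 of 12189 genes passed by edgeR or DESeq2 (242 at an unadjusted p below 0.05). It could be fitted for 7 in stroma, from -0.16 to 0.45, where 0 of 20516 genes passed by edgeR, 10 by DESeq2 and 680 had an unadjusted p below 0.05.

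Along chromosome 6 the members stand in the order Gimap8, Gimap9, Gimap4, Gimap6, Gimap7, Gimap1, Gimap5 and Gimap3, with Gimap6 and Gimap3 on the minus strand and no other named protein-coding gene between the first and the last. The size of the difference did not follow this order. Gimap9, which differed least between donor and control cells, stands between Gimap8 at -4.38 and Gimap4 at -4.33. The nearest tested genes outside the cluster did not fall with it. On the Gimap8 side Zfp775, Repin1 and Lrrc61 were at -0.42, 0.04 and -0.03 in donor against control cells (edgeR adjusted p = 0.137, 0.814 and 0.863) and at 0.28, 0.09 and 0.04 in host against control cells (edgeR adjusted p = 0.341, 0.663 and 0.879).

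On the Gimap3 side the next genes are Tmem176b and Tmem176a, which encode membrane proteins of dendritic cells and macrophages, and both were higher in host and in donor cells than in control cells. Tmem176a averaged 38.9 ± 6.1 CPM (counts scaled to a common library size) in host cells (SD, n = 7) and 17.7 ± 2.6 CPM in control cells (n = 8), a log2 fold change of 1.16 ± 0.10 (edgeR adjusted p = 3.08e-06). Tmem176b averaged 57.7 ± 8.7 CPM in host cells and 29.2 ± 4.0 CPM in control cells, a log2 fold change of 1.00 ± 0.10 (edgeR adjusted p = 6.84e-06). In donor against control cells they were at 0.80 and 0.70, and all host and donor libraries were above all control libraries for both genes, as 1.91% of genes were in host and 6.84% in donor cells. Between donor and host cells neither passed, at -0.35 and -0.29. Macrophage and monocyte genes were also higher in host cells, 7 of 10 against 8.61% of all genes, and their part in the result was not tested. In BMT against control stroma Tmem176a was at -0.12 and Tmem176b at -0.06, and neither passed.

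**Figure D5:**
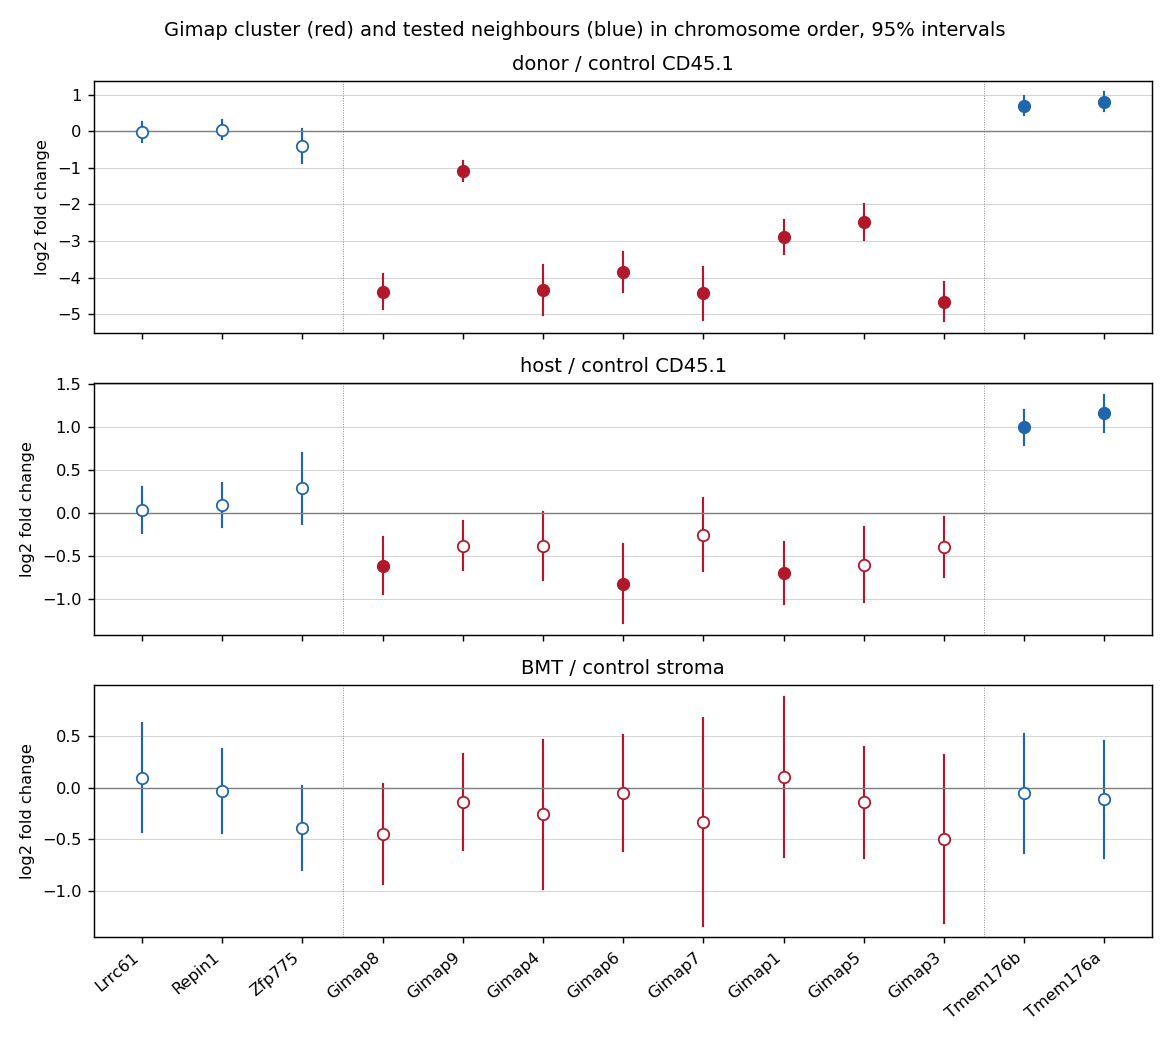
Log2 fold changes with 95% intervals of the Gimap genes (red) and of the tested neighbours (blue), in their order along chromosome 6, in donor against control CD45.1 cells, host against control CD45.1 cells and BMT against control stroma; filled points have an edgeR adjusted p below 0.05. In the upper panels the Gimap genes are below 0 and Tmem176b and Tmem176a above it, at 0.70 and 0.80 in donor cells.

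The likeness of 2 members limits their counts. Gimap8 has the longest coding sequence, 2064 bases. Its pairs agree in 74.3 to 78.6% of aligned bases, with identical runs of 8 to 12 bases. Gaps were not counted, which can raise the identity of those pairs. Gimap7 and Gimap9 agree in 67.1% with a run of 17 bases. The coding sequences of Gimap3 and Gimap5 agree in 91.1% of 895 aligned bases with an identical run of 140 bases. Reads of Gimap3 and Gimap5 may therefore have been divided or dropped, and with their counts added together the log2 fold change was -4.10 in donor against control cells and -0.43 in host against control cells. Gm28053, a protein-coding gene model on the same strand, overlaps exons of Gimap7, Gimap1 and Gimap5, and Gimap1os overlaps Gimap1 on the opposite strand. The strand setting of the counting is not given in the sources used here, so reads of Gimap1 and Gimap1os cannot be told apart. Gimap1os averaged 0.12 CPM in donor cells and 1.15 CPM in control cells.

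Across the 22 CD45-sorted libraries, with group means subtracted, 7 of the members varied together: Pearson correlations between pairs without Gimap9 ran from 0.634 to 0.907, the highest between Gimap6 and Gimap3. Gimap9 correlated with the others at 0.333 to 0.635. These are descriptions over libraries that share animals, scaling and cell make-up. The genes whose deviations were most like the mean of the members, of 11207 searched, were Slc5a3 at 0.939, Pou6f1 and Trbc1, a T-cell receptor constant gene, at 0.936, Cxcl16 at 0.925, Gpr132 at 0.913, Il2rb at 0.908, Txk at 0.901, Cd5 at 0.895, Clcf1 at 0.892 and Prkab2 at 0.884. For single members the leading genes included Il7r for Gimap1 at 0.871, Gata3 for Gimap7 at 0.826, and the B-cell genes Fcer2a and Cd79a for Gimap8 at 0.881 and 0.87. For Gimap9 it was the ribosomal protein gene Rps27 at 0.838.

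Stroma gave another grouping. Over its 15 libraries Gimap4 and Gimap6 correlated at 0.978, and both were most like Aplnr, the apelin receptor gene of endothelial cells, and Pear1, a platelet and endothelial receptor gene, at 0.933 to 0.946. Gimap8 and Gimap3 correlated at 0.023. The genes most like the mean of the members, of 13918 searched, included Atg9a at 0.945, Prkd2, Spib, Ccr7, Dennd4a, Abcg1, Traf6, Plekhm1 and Gtpbp2, the last at 0.884.

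Partners of the family were measured too. Of the 5 Gabarap and Lc3 genes (the ATG8 family, to which the Gimap6 partner Gabarapl2 belongs) 1 was lower and 1 higher in donor against control cells, Map1lc3b at -0.38 and Gabarapl1 at 0.30, and the same 2 in host against control cells at -0.26 and 0.24. Gabarapl2, named as the partner of Gimap6, averaged 40.8 ± 5.8 CPM in host cells and 42.8 ± 5.4 CPM in control cells (edgeR adjusted p = 0.665). Of 14 Bcl-2 family genes tested, a family of death regulators that Gimap3 and Gimap5 have been reported to bind, 5 were lower and 5 higher in donor cells, led by the death-promoting gene Bmf at -1.89, and 1 lower and 4 higher in host cells, with Bmf at -0.74 and Pmaip1, which encodes Noxa, at 0.67. Of all genes tested 23.0% were lower and 22.7% higher in donor cells, and 7.82% lower and 8.61% higher in host cells, so the ATG8 counts in donor cells are near the background. None of either list was called in BMT stroma.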

How the data were processed

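The authors deposited whole-number read counts per gene without normalization, and TPM values that sum to 999999 to 1000002 per library. The submitters' processing notes name the genome build GRCm39, the aligner STAR 2.7.3a, featureCounts, Subread 1.6.2 and, for the CD11b libraries, RSEM 1.3.3. The tool behind the TPM values, the annotation and the strand setting are not given in the sources used here. The labels' protocols describe directional libraries from poly-A RNA for the CD45 sorts and a low-input kit for stroma.

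Of 56941 identifiers, 51948 matched a symbol. Counts were tested with edgeR 4.0.16 in R 4.3.3: filterByExpr, TMM scaling and the quasi-likelihood test, with a term for sex (none in the all-male CD11b cells), each fit holding the groups compared, p-values adjusted over all genes and called below 0.05. Log2 fold changes and SE come from these fits, levels from TPM or TMM-scaled CPM. Interaction terms and slopes on log2 chimerism used the same test. Likeness is Pearson's r of log2 CPM (prior count 1) after subtracting group means, among genes with a mean of at least 1. Members and gene lists were chosen with earlier results of these data known. Named genes are all 8 members, up to 4 genes per list with the smallest p, the nearest 5 named genes on each side of the cluster, and the genes of like pattern, 10 for the family and 3 a member; some of these are not reported here. Of those neighbours, those tested in the CD45 fits are described.

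Deviations from group means were compared between libraries of 1 animal. Donor and host libraries correlated at 0.168 to 0.582 over 7 animals, and control stroma and CD45.1 libraries at 0.045 to 0.127 over 8 animals. Mice killed on 1 day, per the labels, correlated at 0.246 to 0.294 for host and control cells over 5 days. The libraries of each pair also shared sex, and unmatched pairs were not compared. Neither an animal effect nor a day effect is therefore shown. Replicates are separate animals. Alternatives were DESeq2 1.42.0, limma-voom and limma-trend (limma 3.58.1) on TPM plus 1 or 0.1, other scalings and filters, no sex term, each sex alone, all 43 libraries in one fit, blocks for animal or day, and leaving out each library. Adding the counts of Gimap3 and Gimap5 together was chosen after seeing the data. On simulated counts, 200 genes drawn at random were changed. Of those changed by a log2 value of 1, the fits recovered 94% for host against control and 82% for donor against control. They recovered 33.7% for stroma and 62.2% for CD11b cells. The members' log2 fold changes were smaller than 1 in host cells, -0.829 to -0.255, and in stroma, -0.496 to 0.103. These rates therefore do not give the chance of calling changes of that size. Reference sequences were of GRCm38, so no coordinates of the files' build are given.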

Additional observations from a re-analysis of the deposited data

Results flagged for a closer look

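One value stood apart from its group. Gimap1 reached 19.15 TPM in the BMT stroma library of animal N203, where the next of the 7 libraries was at 9.235 TPM, so that the gap took 0.617 of the group's whole range. Of 40 groups of 7 or 8 libraries checked, 1 was marked, and chance marks about 1 in 20. The same library was the highest BMT stroma library for 5 of 8 members.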

How the results depend on the processing

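The 8 members were lower in donor than in control cells under every alternative run, and lower in control stroma than in control CD45.1 cells, except that Gimap9 was not called with library totals alone, at -0.22. In donor against host cells 8 were lower in the main test and 6 in females alone, where Gimap5 was at -1.91 and Gimap9 at -0.51 without passing. With the animal as a replicate block 8 members were lower in both paired comparisons, and the block changed no member's call. Blocking by day of euthanasia kept only the libraries of the 5 days shared by both groups, which left out control animal N093 among others. In these smaller fits 3 members were lower in host cells, 8 in donor cells and 0 in stroma.

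The count of members lower in host cells, 3 in the main test, was 5 with DESeq2 and 5 without a filter on low counts, 1 on log2 TPM with 1 or 0.1 added, and 0 in males alone, in females alone and with all 43 libraries in one fit. It ran from 3 to 6 when each library was left out, with 6 without control animal N093. The cause was not tested.

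Reversed signs all belonged to values that passed neither way. In host cells Gimap7 was at 0.063 in males. In BMT stroma Gimap1 was at -0.06 with limma-voom, -0.056 and -0.082 on TPM plus 1 and 0.1 and -0.35 in females, males alone gave 0.15 for Gimap5, 0.27 for Gimap7 and 0.049 for Gimap9, and the day block gave 0.057 for Gimap6. Leaving out 1 library moved Gimap1 between -0.29 and 0.29, Gimap5 between -0.24 and 0.027 and Gimap6 between -0.28 and 0.065 there. In CD11b cells TPM plus 1 and 0.1 gave 0.27 and 0.43 for Gimap1, 0.083 and 0.28 for Gimap5, 0.20 and 0.24 for Gimap6 and 0.17 and 0.27 for Gimap8. Library totals gave 0.016 for Gimap5, 0.008 for Gimap6 and 0.13 for Gimap8, and all libraries in one fit 0.20, 0.20, 0.18 and 0.35 for Gimap1, Gimap5, Gimap6 and Gimap8. Gimap8 was at 0.09 with limma-voom and 0.005 with upper-quartile scaling, and Gimap5 with Gimap3 counts added at 0.45. Leave-one-out ranges in CD11b cells were -0.37 to 0.34 for Gimap1, -0.055 to 1.21 for Gimap3, 0.30 to 1.87 for Gimap4, -0.86 to 0.50 for Gimap5, -0.48 to 0.39 for Gimap6, -0.38 to 1.43 for Gimap7, -0.81 to 0.82 for Gimap8 and -0.12 to 0.16 for Gimap9. Among differences of effects, Gimap7 was at 0.0 with DESeq2 for stroma minus CD45.1 cells, Gimap4 and Gimap6 at 0.11 and 0.10 with limma-voom for females minus males in stroma, and the Gimap6 slope in stroma at 0.042 with limma-voom.

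Counts of all genes called moved by over 1.5 times as follows. Host against control had 2312, against 1263 and 1229 on TPM plus 1 and 0.1, 479 in males, 121 in females, 384 with all libraries in one fit and 1527 without host animal N014. Donor against control had 6360 and 3027 in males. Donor against host had 1928, against 1146 and 1142 on TPM, 1136 in males, 450 in females, 1204 in one fit and 4605 with the block. Stroma had 391, against 750 with DESeq2, 125 in males, 0 in females, 250 with the day block, 999 in one fit and 593 without BMT animal N032. CD11b cells had 0, against 291 with DESeq2, 59 without a filter, 2 and 3 on TPM, 672 in one fit, 28 without N187 and 3 without N129. Control stroma against CD45.1 cells had 17772 and 33112 without a filter. Upper-quartile scaling moved the share of higher genes among those called in stroma to 45.3%, against 31.2%. Gimap7 in donor cells, at 1 to 8 counts, is the value most limited by depth.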
